A study of Oreochromis mossambicus with 12 samples.

Results

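MAP kinases are protein kinases arranged in relays, and the dual-specificity phosphatases (DUSP) include the enzymes that switch them off again. The genes described here were chosen by name alone, as symbols of the MAP kinase kinase kinase kinases (map4k), MAP kinase kinase kinases (map3k), MAP kinase kinases (map2k), the mapk symbols and the numbered dusp symbols. Of 28921 symbols, 49 that the pattern matched are described, and 29 of them averaged at least 1 FPKM and were tested among 12423 genes. FPKM counts sequenced fragments relative to transcript length and to library size. Of the symbols in the table, 18784 are LOC identifiers without a gene name, so a family member listed under such an identifier is not analysed here.

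RNA was measured in leukocytes of the tilapia Oreochromis mossambicus, taken from the head kidney, where bony fish make their blood cells. The cells were held in primary culture and collected 12 h after treatment. The co-treatment group received Streptococcus agalactiae killed by heat, at an MOI (bacteria per cell) of 1, together with sodium nitrite at 1000 μM. The bacteria group received the heat-killed bacteria alone, the nitrite group received the nitrite alone, and the PBS group received the buffer. Each of the 4 groups had 3 libraries, numbered 1 to 3 in the labels. Whether the 3 came from separate fish or cultures is not stated in the labels. The p-values therefore measure only how far these libraries differed, and that spread may be technical. The bacteria were killed, so the values describe contact with bacterial material and not a growing infection.

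In a MAP kinase relay each tier phosphorylates the next: a MAP4K or a small GTPase acts on a MAP3K, the MAP3K on a MAP2K, and the MAP2K on the MAP kinase itself, which it activates on a threonine and a neighbouring tyrosine. The MAP kinase phosphatases, one class of the DUSP, remove both phosphates. In mammalian leukocytes these relays carry signals from Toll-like receptors to cytokine genes, and several of the phosphatases are themselves induced by the signal they end. The relays act through phosphorylation, which RNA levels do not measure.

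The deposited FPKM summed to between 422129 and 503740 per library, and the relative depth of the libraries, estimated from the steps between low values, differed by at most 1.4 times. Absolute depth is unknown. Library 1 of the PBS group stood apart: it correlated at 0.849 and 0.809 with its mates, and genes of ribosomal proteins made up 4.77% of its FPKM, against 16.75% and 15.57% in PBS libraries 2 and 3. That share was 9.07% to 12.53% in co-treatment, 8.66% to 11.73% in bacteria and 15.24% to 16.27% in nitrite libraries. In comparisons with PBS, leaving it out ended or gave some calls among the family genes, or moved a named called change by over 1.5 times. The values without it are given where that happened. With co-treatment against nitrite, leaving it out gave 7 family genes called lower, against 6 with it. The share of all tested genes called lower was 33.0% without it and 23.3% with it. For that comparison no values by gene are given without it.

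With bacteria alone, 10 of the 29 genes passed the test, 4 higher and 6 lower than with PBS. The share of all tested genes called in this comparison was 37.0%, of which 10.7% were called higher and 26.3% lower, so the share of family genes called was close to the background. The 4 that rose were dusp16, dusp7, mapk6 and mapkapk3. The 6 that fell were map4k2, map3k4, map3k21, map3k15, map3k3 and map2k5. Of 14 genes in the MAP4K, MAP3K and MAP2K tiers 0 rose and 6 fell, against 1 and 8 with the replicate number as a block. Of 8 MAP kinase phosphatases 2 rose and 0 fell, against 2 and 2 with that block. By sign, 4 of the 8 changes were positive and 4 negative, against 6 and 2 after median-ratio scaling. Whether a tier moved as a class was not tested. The comparison of co-treatment with nitrite, which asks what bacteria did when nitrite was present, called 4 higher and 6 lower, against a background of 33.9% (10.6% higher and 23.3% lower). Its group means came from other libraries than those of bacteria against PBS. Both comparisons shared the spread estimate of the fit over all libraries, and libraries of one number deviated together across the groups. The comparisons are therefore not independent. In all, 9 of the 10 genes called in each (90% of each list) were called in both in the same direction. Among all tested genes 3601 were called in both in the same direction, which is 78.4% of those called with bacteria against PBS and 85.6% of those called with co-treatment against nitrite.

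In both comparisons the whole table shifted. The median log2 change of all tested genes was -0.29 with bacteria against PBS and -0.32 with co-treatment against nitrite, beside medians of -0.17 and -0.21 over the 29 genes. When libraries were scaled to a common median ratio, the median of all genes stood at 0.01 and -0.04, that of the 29 genes at 0.02 and 0.06, and the members called lower numbered 4 and 3. Of all tested genes, 16.8% were then called higher and 14.0% lower with bacteria against PBS, and 16.2% and 13.2% with co-treatment against nitrite. With the replicate number as a block, 5 of the 29 rose and 11 fell with bacteria against PBS, beside 53.4% of all genes called. Without PBS library 1 the same comparison called 3 higher and 6 lower, beside 11.2% and 28.5% of all tested genes. No longer called were mapk6 (0.66, limma adjusted p = 0.0515), map3k3 (-0.47, limma adjusted p = 0.109) and map2k5 (-0.34, limma adjusted p = 0.0561), and newly called lower were dusp10 (-1.12, limma adjusted p = 0.0386) and map3k5 (-1.07, limma adjusted p = 0.0406).

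**Figure D1:**
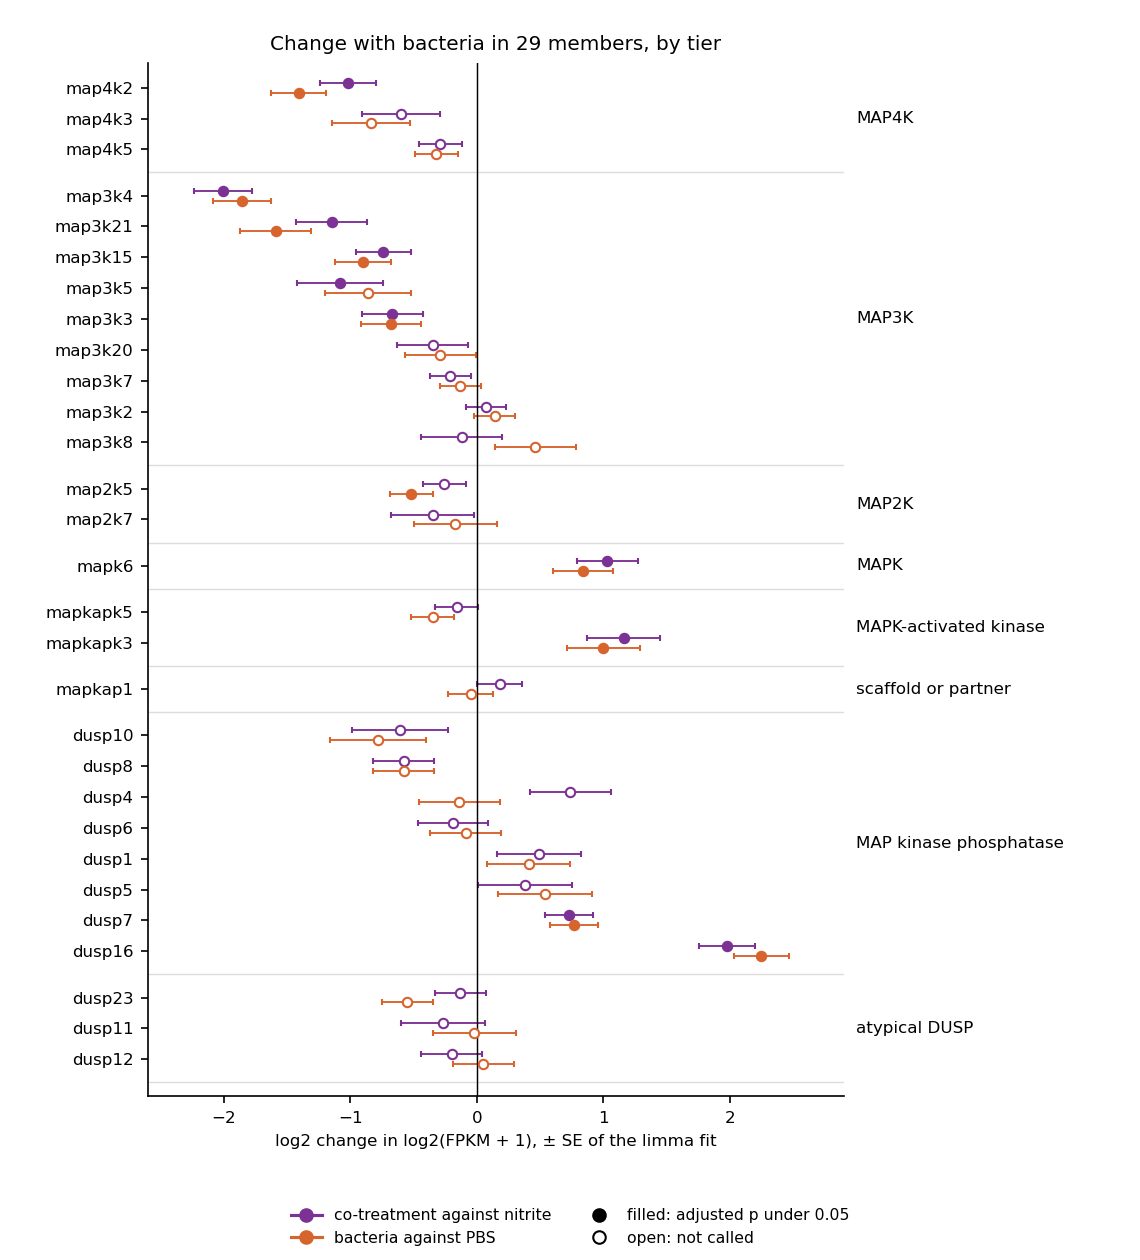
Log2 change of each of the 29 genes on the log2(FPKM + 1) scale (horizontal axis) by tier, for co-treatment against nitrite (purple) and bacteria against PBS (orange), with the standard error of the fit; filled points had an adjusted p under 0.05. The upper kinase tiers lie mostly left of 0, from -1.86 to 0.46 with bacteria against PBS, and dusp16 lies farthest right at 1.98 and 2.25.

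Marker genes of cell types moved in the same comparisons. With bacteria against PBS 10.7% of all tested genes were called higher and 26.3% lower, and no marker count was tested against these shares. Summed over the markers found in the table, granulocyte markers stood at 894 to 1250 FPKM in co-treatment, 834 to 1360 in bacteria, 5600 to 7020 in nitrite and 5240 to 7290 in PBS libraries, with 1 of 4 higher and 1 of 4 lower with bacteria against PBS. The difference lay in 1 gene, epx, at 52.9 to 156 FPKM in co-treatment, 102 to 175 in bacteria, 4980 to 6660 in nitrite and 4710 to 6760 in PBS libraries. The other 3 summed to 738 to 1190, 659 to 1260, 363 to 720.0 and 522 to 679 FPKM in the same order of groups, and ncf1 was the one called higher. The sum of 3 macrophage markers was 163.0 to 223 FPKM in co-treatment, 174 to 216 in bacteria, 278 to 556 in nitrite and 303 to 482 in PBS libraries, and all 3 fell with bacteria against PBS. Lymphocyte markers summed to 30 to 41.8, 26.4 to 38.0, 94.6 to 129 and 93.3 to 169 FPKM in co-treatment, bacteria, nitrite and PBS libraries, with 0 of 6 higher and 1 lower. The one lower was btk, which made up most of the sum, and the other 5 summed to 7.06 to 13.5, 6.63 to 10.8, 9.61 to 16 and 9.53 to 24.7 FPKM in those groups. Progenitor markers summed to 70.0 to 107, 61.9 to 79.7, 215 to 321 and 232 to 338 FPKM in the same order of groups, with 0 of 4 higher and 3 lower. Of 4 thrombocyte markers 0 rose and 3 fell, with sums of 42.7 to 76.7, 30.9 to 77.2, 92.5 to 286 and 92.9 to 239 FPKM, and f13a1 was listed at 0. Of 4 tested stromal and endothelial markers 1 rose and 3 fell. The 9 found in the table, with col1a1 listed at 0, summed to 51.9 to 99.9, 60.0 to 94.7, 61.2 to 106 and 51.6 to 86.0 FPKM in co-treatment, bacteria, nitrite and PBS libraries. The one that rose, flt1, had 56.6, 37.35 and 78.2 FPKM in bacteria and 0.12, 0.68 and 2.12 in PBS libraries. The falls of tagln, pdgfrb and stab1 therefore do not show in the sum. Of the 16 marker calls, 11 remained after median-ratio scaling, and 11 without bacteria library 3 or without PBS library 2. The 1 erythroid marker in the table reached at most 0.55 FPKM. The part of these shifts in the results below was not tested. In bulk RNA, fewer cells of a type and less RNA per cell cannot be told apart.

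The MAP4K tier, which relays signals from receptors and small GTPases, had 3 tested genes, and 1 of them fell with bacteria. Of all tested genes, 26.3% were called lower in this comparison. That gene, map4k2 (germinal centre kinase, which acts towards the stress kinases JNK and p38 in mammals), had 2.76, 2.37 and 2.86 FPKM in co-treatment, 2.59, 1.61 and 2.59 in bacteria, 8.44, 4.88 and 6.42 in nitrite and 9.29, 6.45 and 7.16 in PBS libraries. Every library with bacteria was below every library without. The log2 change was -1.41 ± 0.22 with bacteria against PBS (limma adjusted p = 0.000792) and -1.02 ± 0.22 with co-treatment against nitrite (limma adjusted p = 0.00491). The change against nitrite missed the threshold after quantile normalization (limma adjusted p = 0.126). A related kinase, map4k3, had 3.67, 2.78 and 3.63 FPKM in co-treatment, 4.09, 2.56 and 3.76 in bacteria, 7.74, 4.68 and 4.77 in nitrite and 12.5, 4.83 and 5.35 in PBS libraries. PBS library 1 was far above its mates, while the libraries with bacteria again lay below all others. Its change of -0.84 ± 0.31 with bacteria missed the threshold (limma adjusted p = 0.0558) and passed it with the replicate block (limma adjusted p = 0.00765). Without PBS library 1 it was -0.46 (limma adjusted p = 0.138). The most abundant of the tier, map4k5, had 14.2, 11.4 and 11.2 FPKM in co-treatment, 14.8, 12.7 and 13.9 in bacteria, 15.4, 14.01 and 16.1 in nitrite and 21.7, 15.7 and 15.4 in PBS libraries, and its change of -0.32 ± 0.17 with bacteria was not called.

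The MAP3K tier, where stress and receptor signals enter the relay, had 9 tested genes. Of them 4 fell and 0 rose with bacteria, and 5 fell and 0 rose with co-treatment against nitrite. Of all tested genes, 26.3% and 23.3% were called lower in these comparisons. After median-ratio scaling 3 and 2 of the 9 fell and 0 rose. After quantile normalization 2 fell in each comparison, and 1 rose with bacteria against PBS. The clearest fall was that of map3k4 (MEKK4), which in mammals is switched on by GADD45 proteins and acts towards p38 and JNK. It had 1.49, 1.47 and 1.48 FPKM in co-treatment, 1.5, 1.59 and 1.69 in bacteria, 11.7, 9.83 and 6.18 in nitrite and 8.54, 10.7 and 6.53 in PBS libraries. The libraries with bacteria all lay between 1.47 and 1.69 FPKM, far below the rest. With bacteria against PBS the ratio of mean FPKM was 0.185 and the log2 change -1.86 ± 0.23 (limma adjusted p = 0.000189), and with co-treatment against nitrite the change was -2.01 ± 0.23 (limma adjusted p = 0.000123). These calls held under all 20 alternatives.

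The mixed-lineage kinase map3k21 had 3.78, 6.46 and 2.62 FPKM in co-treatment, 2.1, 3.2 and 2.55 in bacteria, 11.1, 13.4 and 7.07 in nitrite and 9.99, 10.1 and 9.38 in PBS libraries. All libraries with bacteria were below all without, and co-treatment library 2 came nearest to nitrite library 3. The change was -1.59 ± 0.28 with bacteria against PBS (limma adjusted p = 0.00162) and -1.15 ± 0.28 with co-treatment against nitrite (limma adjusted p = 0.00991), and the second call was lost after quantile normalization (limma adjusted p = 0.0684). A relative of the stress sensor ASK1, map3k15 (ASK3) had 1.13, 1.75 and 1 FPKM in co-treatment, 1.29, 1.95 and 1.09 in bacteria, 2.11, 3.2 and 3.15 in nitrite and 2.79, 3.75 and 4.1 in PBS libraries. It fell in both comparisons, with a log2 change of -0.90 ± 0.22 with bacteria against PBS (limma adjusted p = 0.00856) and of -0.74 ± 0.22 with co-treatment against nitrite (limma adjusted p = 0.0232). The groups did not overlap in either comparison. Quantile normalization ended both calls (limma adjusted p = 0.0861 and 0.339), and median-ratio scaling ended the second (limma adjusted p = 0.081). The second was also lost without co-treatment library 1 or 3 or nitrite library 2 or 3.

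ASK1 itself, map3k5, is held inactive by reduced thioredoxin in mammals and responds to oxidative stress. It had 4.66, 9.58 and 10.3 FPKM in co-treatment, 4.72, 10.3 and 11.4 in bacteria, 17.6, 18.8 and 16.6 in nitrite and 11.7, 18.2 and 18.8 in PBS libraries. Library 1 was lowest in co-treatment, in bacteria and in PBS. The change with co-treatment against nitrite passed the test at -1.08 ± 0.34 (limma adjusted p = 0.0297), but not after median-ratio scaling (limma adjusted p = 0.0633) or without nitrite library 1, 2 or 3 or co-treatment library 1, where the adjusted p reached up to 0.118. The change with bacteria against PBS, -0.86 ± 0.34, missed it (limma adjusted p = 0.0681) and passed with the replicate block (limma adjusted p = 0.00787). The kinase map3k3 (MEKK3), which acts through map2k5 on the MAP kinase ERK5 in mammals, had 17.7, 11.4 and 12.5 FPKM in co-treatment, 19.6, 14.6 and 15.4 in bacteria, 27.4, 20.2 and 19.96 in nitrite and 36.7, 23.9 and 22.2 in PBS libraries. Its log2 change was -0.68 ± 0.24 with bacteria against PBS (limma adjusted p = 0.0424) and -0.67 ± 0.24 with co-treatment against nitrite (limma adjusted p = 0.0487), close to the threshold of 0.05. The first call was kept in 8 of 20 alternatives and the second in 6. The first was lost, among others, after median-ratio scaling (limma adjusted p = 0.406) and without PBS library 1 or 2, bacteria library 1, 2 or 3, co-treatment library 2 or 3 or nitrite library 2, where it reached up to 0.128.

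The other MAP3K genes were not called with bacteria. The most abundant of the tier was map3k8 (TPL2), the kinase that links Toll-like receptors to ERK in mouse macrophages. It had 55.9, 30.9 and 38.04 FPKM in co-treatment, 83.96, 50.1 and 42.7 in bacteria, 57.6, 43.9 and 33.4 in nitrite and 50, 44.8 and 30.5 in PBS libraries. Library 1 was the highest of every group, and bacteria library 1 lay far above all others. Its change of 0.46 ± 0.32 with bacteria missed the threshold (limma adjusted p = 0.288) and passed it with the replicate block (limma adjusted p = 0.0483). TAK1, encoded by map3k7 and placed below the TRAF adaptors of Toll-like and TNF receptors, had 13, 10.5 and 9.79 FPKM in co-treatment, 12.7, 11.3 and 11.7 in bacteria, 12.8, 13.98 and 11.8 in nitrite and 15.7, 12.1 and 11.7 in PBS libraries. Its groups overlapped throughout, with a change of -0.13 ± 0.16 with bacteria. The genes map3k2 (MEKK2) and map3k20 (ZAK, a sensor of stalled ribosomes in mammals) had changes of 0.14 ± 0.16 and -0.29 ± 0.28 and were not called. After quantile normalization map3k2 was called higher with bacteria against PBS (limma adjusted p = 0.0327).

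Of the MAP2K tier, 2 genes were tested. The gene map2k5 (MEK5, the activator of ERK5) had 4.8, 5.57 and 5.95 FPKM in co-treatment, 5.37, 5.75 and 5.94 in bacteria, 6.56, 6.89 and 6.69 in nitrite and 11.2, 7.46 and 7.49 in PBS libraries. It fell with bacteria against PBS, with a log2 change of -0.52 ± 0.17 (limma adjusted p = 0.0357), and PBS library 1 was well above the rest. Without that library the change was -0.34 and the call was lost, as it was after median-ratio scaling (limma adjusted p = 0.393), without bacteria library 1, 2 or 3, and without co-treatment library 2 or nitrite library 2. The change with co-treatment against nitrite, -0.26 ± 0.17, was not called. The JNK activator map2k7 (MKK7) had 0.48, 1.01 and 0.91 FPKM in co-treatment, 1.17, 0.87 and 1.06 in bacteria, 2.28, 1.11 and 0.7 in nitrite and 2.73, 1.08 and 0.52 in PBS libraries, with no call in any comparison. Its values overlapped between all groups and ranged widely within PBS.

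The MAP kinase mapk6 rose with bacteria. It encodes ERK3, an atypical MAP kinase that no MAP2K is known to activate and whose level in mammalian cells is set largely by rapid turnover of the protein. It had 123, 135 and 94.8 FPKM in co-treatment, 101, 94.02 and 81.7 in bacteria, 46.6, 53.8 and 72.9 in nitrite and 39.1, 47.8 and 70.03 in PBS libraries. All libraries with bacteria were above all without. It rose by 0.84 ± 0.24 with bacteria against PBS (limma adjusted p = 0.0205) and by 1.03 ± 0.24 with co-treatment against nitrite (limma adjusted p = 0.00889). The first of these missed the threshold without bacteria library 1 or 2 or PBS library 1 or 2, with an adjusted p of up to 0.0737; the second held under all 20 alternatives.

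Below the MAP kinases, mapkapk3 (MK3, a p38 target that regulates cytokine mRNA in mammals) rose with bacteria. It had 88.1, 65.6 and 78.3 FPKM in co-treatment, 92.7, 62.1 and 73.2 in bacteria, 27.9, 25.1 and 54.5 in nitrite and 35.2, 30.6 and 47.4 in PBS libraries. The groups with and without bacteria did not overlap, the highest library without bacteria being nitrite 3. The change was 1.00 ± 0.29 with bacteria against PBS (limma adjusted p = 0.0207) and 1.16 ± 0.29 with co-treatment against nitrite (limma adjusted p = 0.0108). The first was lost without bacteria library 1 or PBS library 2, with an adjusted p of up to 0.0836. The related mapkapk5 (MK5), which binds ERK3 in mammals, had 6.05, 8.49 and 6.39 FPKM in co-treatment, 5.45, 6.24 and 6.57 in bacteria, 6.52, 9.14 and 8.1 in nitrite and 8.26, 7.58 and 8.15 in PBS libraries, and no comparison called it. The gene mapkap1 (SIN1), which the name pattern also matched, is a subunit of the mTORC2 complex and no tier of the relay. It had 10.8 ± 0.746 FPKM in co-treatment, 11.3 ± 1.39 in bacteria, 9.44 ± 0.666 in nitrite and 11.9 ± 3.13 in PBS libraries (SD, n = 3 each), with no call.

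Among the MAP kinase phosphatases, dusp16 (MKP-7, which acts on JNK and p38 in mammals) changed most. It had 152, 121 and 128 FPKM in co-treatment, 138, 113 and 106 in bacteria, 33.5, 33.1 and 32.5 in nitrite and 16.2, 30.3 and 28.01 in PBS libraries. The lowest library with bacteria held over 3 times the highest library without. The mean was 4.79 times as high in bacteria as in PBS libraries, a log2 change of 2.25 ± 0.22 (limma adjusted p = 4.81e-05). Its differences by replicate number were 3.01, 1.87 and 1.88, so the low PBS library 1 raised this change. With co-treatment against nitrite it rose by 1.98 ± 0.22 (limma adjusted p = 0.000117), and the calls held under all 20 alternatives. The ERK phosphatase dusp7 had 27.1, 21.6 and 33.8 FPKM in co-treatment, 27.9, 24.7 and 29.9 in bacteria, 14.6, 15.1 and 18.3 in nitrite and 14.8, 14.1 and 18.2 in PBS libraries. Again no library with bacteria overlapped one without. It rose by 0.77 ± 0.19 with bacteria against PBS (limma adjusted p = 0.0087) and by 0.73 ± 0.19 with co-treatment against nitrite (limma adjusted p = 0.0126). Without co-treatment library 3 the second change just missed the threshold (limma adjusted p = 0.0506).

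**Figure D2:**
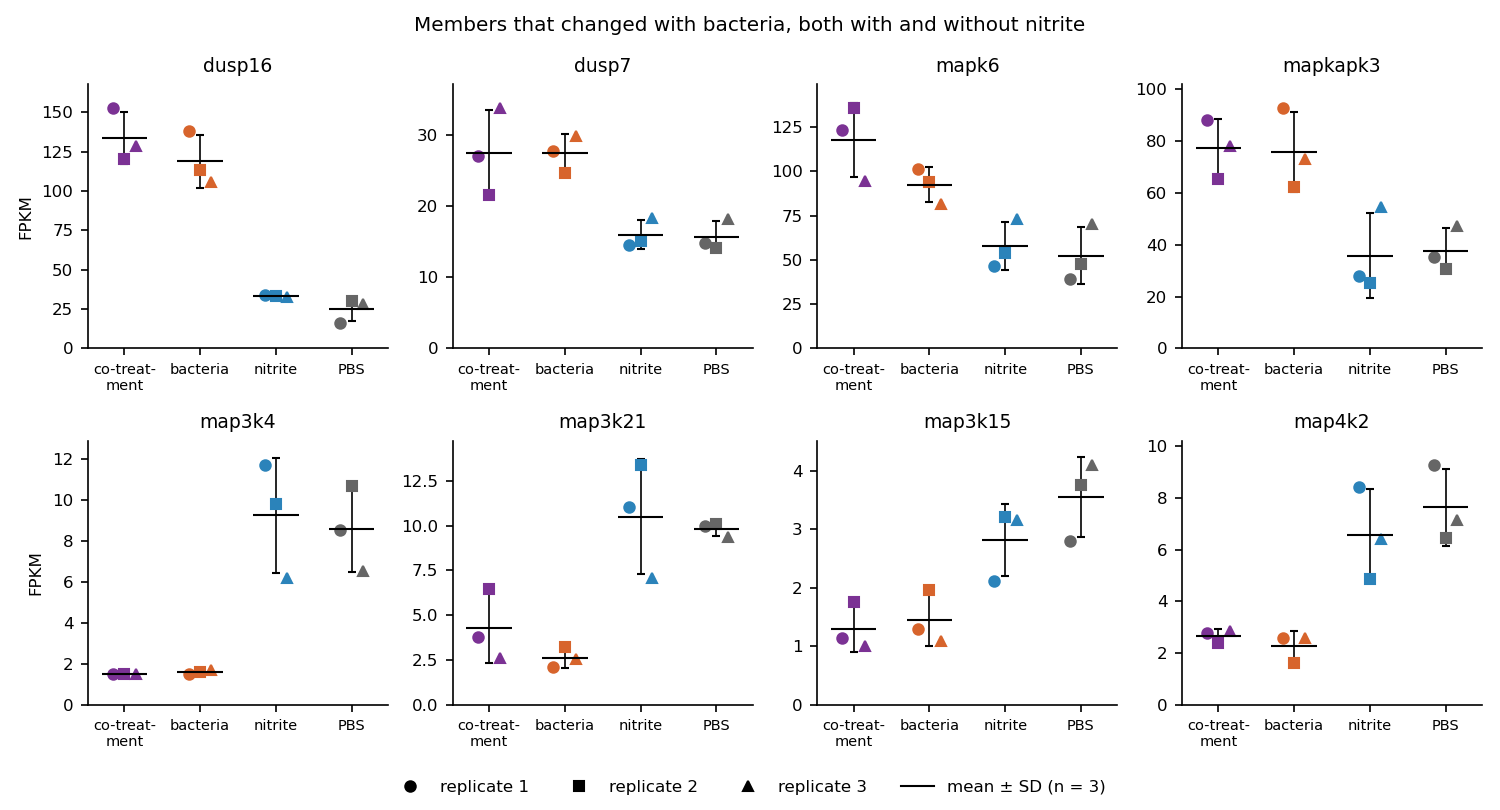
FPKM (vertical axes, from 0) of dusp16, dusp7, mapk6, mapkapk3, map3k4, map3k21, map3k15 and map4k2 in every library of the co-treatment, bacteria, nitrite and PBS groups, with mean and SD (n = 3 each) and a symbol for each replicate number. The genes shown were called with bacteria against PBS and with co-treatment against nitrite, as was map3k3, which is not shown. The 4 that rose lie higher in all 6 libraries with bacteria than in the 6 without, and the 4 shown that fell lie lower. They were picked by these calls, so their separation is no further evidence, and its share among all genes was not computed.

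The phosphatases known as early response genes were not called with bacteria at 12 h. The nuclear phosphatase dusp1 (MKP-1), which limits p38 and JNK in mouse macrophages, had 33.4, 29.5 and 18.9 FPKM in co-treatment, 32.1, 19.7 and 18.1 in bacteria, 13.3, 23.3 and 20.6 in nitrite and 11.01, 17.8 and 23.8 in PBS libraries. Its groups overlapped, with a change of 0.41 ± 0.33 with bacteria against PBS (limma adjusted p = 0.363). The nuclear ERK phosphatase dusp5 had 21.2, 21.4 and 23.5 FPKM in co-treatment, 17.9, 14.8 and 18.9 in bacteria, 10.7, 17.6 and 24.5 in nitrite and 6.07, 11.9 and 20.2 in PBS libraries. PBS and nitrite libraries spread widely, with library 1 the lowest of each, and the change with bacteria was 0.54 ± 0.37 (limma adjusted p = 0.279). The cytoplasmic ERK phosphatase dusp6 had 13.2, 12.4 and 10.7 FPKM in co-treatment, 13.01, 12.5 and 10.01 in bacteria, 10.7, 15.1 and 16.8 in nitrite and 7.77, 12.9 and 19.7 in PBS libraries, a change of -0.09 ± 0.28 with bacteria (limma adjusted p = 0.83).

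The phosphatases dusp10 (MKP-5) and dusp8, which act on JNK and p38 in mammals as dusp16 does, had lower means with bacteria. For dusp10 the values were 1.74, 3.45 and 3.98 FPKM in co-treatment, 1.2, 2.57 and 3.09 in bacteria, 3.24, 7.92 and 4.71 in nitrite and 2.42, 6.08 and 5.75 in PBS libraries. Library 1 was the lowest of every group, so the groups overlapped while each bacteria library was below the PBS library of its number. The change of -0.78 ± 0.38 was not called (limma adjusted p = 0.134), whereas with the replicate block it was (limma adjusted p = 0.00498), as it was without PBS library 1. For dusp8 the values were 2.12, 3.55 and 3.21 FPKM in co-treatment, 1.82, 2.82 and 2.87 in bacteria, 5.15, 6.33 and 3.42 in nitrite and 4.35, 4.77 and 3.51 in PBS libraries. The bacteria libraries lay below all PBS libraries, with a change of -0.58 ± 0.24 that was called with the replicate block (limma adjusted p = 0.0326) and not without it (limma adjusted p = 0.0773). After median-ratio scaling the changes of dusp10 and dusp8 were -0.52 and -0.31 and were not called.

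The atypical DUSP are small phosphatases that mostly lack the MAP kinase binding domain. The gene dusp11, whose product removes phosphates from RNA ends, had 3.69 ± 0.935 FPKM in co-treatment, 3.23 ± 0.599 in bacteria, 4.61 ± 0.188 in nitrite and 3.63 ± 2.07 in PBS libraries (SD, n = 3 each). For dusp12 these means were 3.91 ± 0.798, 3.98 ± 0.884, 4.66 ± 1.25 and 3.84 ± 1.204 FPKM in co-treatment, bacteria, nitrite and PBS libraries (SD, n = 3 each), and neither gene was called. The gene dusp23 had 0.91, 1.46 and 1.76 FPKM in co-treatment, 0.57, 0.76 and 1.03 in bacteria, 1.17, 1.53 and 2.1 in nitrite and 1.7, 1.44 and 1.69 in PBS libraries. The bacteria libraries lay below the PBS libraries, and the change of -0.55 ± 0.20 just missed the threshold (limma adjusted p = 0.0535) and passed it with the replicate block (limma adjusted p = 0.0106).

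**Figure D3:**
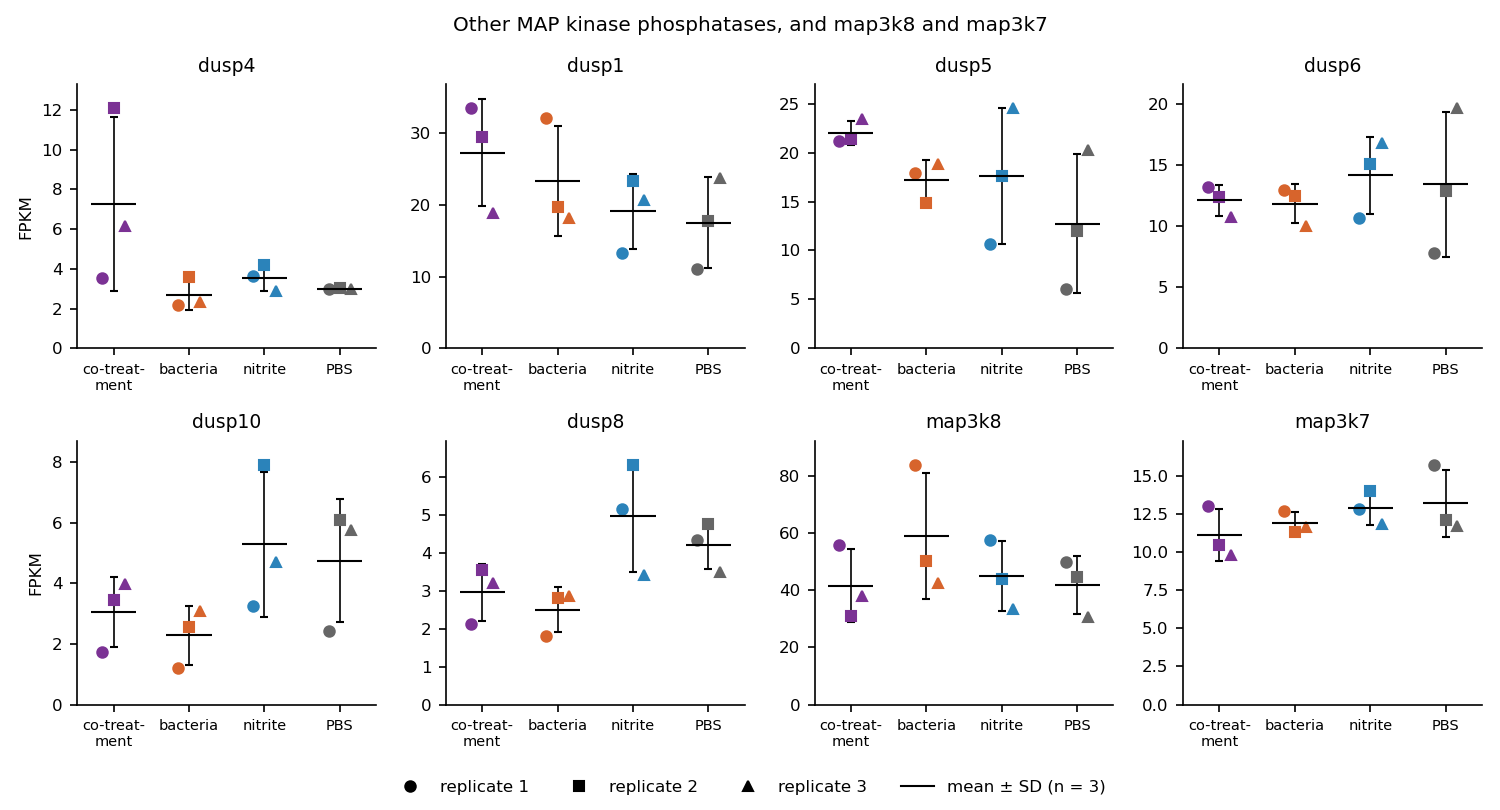
FPKM (vertical axes, from 0) of dusp4, dusp1, dusp5, dusp6, dusp10, dusp8, map3k8 and map3k7 in every library of the co-treatment, bacteria, nitrite and PBS groups, with mean and SD (n = 3 each) and a symbol for each replicate number. The range of the 6 libraries with bacteria overlaps that of the 6 without in each panel, although for dusp8 the bacteria libraries lie below the PBS libraries, and dusp4 reaches 12.1 FPKM in co-treatment library 2.

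Summed over the 11 tested DUSP, the level was 245 ± 15 FPKM in co-treatment, 214 ± 22.6 in bacteria, 125 ± 17.9 in nitrite and 105 ± 31.2 in PBS libraries (SD, n = 3 each). Without dusp16 the sums were 111 ± 1.56, 95.3 ± 7.08, 91.5 ± 18.4 and 80.5 ± 24.9 FPKM in co-treatment, bacteria, nitrite and PBS libraries, so dusp16 carried most of the difference. It made up 58.2%, 51.7% and 53.5% of the DUSP sum in co-treatment, 57.3%, 56.2% and 52.6% in bacteria, 32.3%, 24.9% and 23.8% in nitrite and 22.6%, 27.4% and 21.0% in PBS libraries. The 17 tested kinases of all tiers summed to 319 ± 30.4 FPKM in co-treatment, 312 ± 43.2 in bacteria, 269 ± 11.6 in nitrite and 272 ± 13.3 in PBS libraries (SD, n = 3 each). The only MAP kinase in this sum was mapk6, so it held no JNK or p38 gene. In bacteria libraries mapk6 and mapkapk3 had means of 92.3 and 76.0 FPKM, against 52.3 and 37.7 in PBS libraries. The means of the tiers differed in direction. MAP3K genes summed to 91.9 ± 13.2, 112 ± 20.4, 132 ± 20.6 and 131 ± 14.6 FPKM in co-treatment, bacteria, nitrite and PBS libraries. The 2 MAPK-activated kinases summed to 84.3 ± 10.1, 82.1 ± 15, 43.8 ± 16.4 and 45.7 ± 8.89 FPKM in co-treatment, bacteria, nitrite and PBS libraries.

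The ratio of the DUSP sum to the kinase sum was 0.747, 0.739 and 0.827 in co-treatment, 0.664, 0.695 and 0.705 in bacteria, 0.383, 0.519 and 0.489 in nitrite and 0.254, 0.430 and 0.483 in PBS libraries. The libraries with bacteria did not overlap those without, and each co-treatment library was above each bacteria library. Without dusp16 the ratio was 0.312, 0.357 and 0.385 in co-treatment, 0.283, 0.305 and 0.334 in bacteria, 0.260, 0.390 and 0.373 in nitrite and 0.196, 0.313 and 0.382 in PBS libraries, and all groups overlapped. Sums are led by the few most abundant genes and were given no test. Since mapk6 is the only MAP kinase in the kinase sum, the ratio does not measure a balance between the phosphatases and their targets.

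By gene, the median log2 change with bacteria against PBS was -0.60 over the 14 upper-tier kinases and 0.16 over the 8 MAP kinase phosphatases, beside -0.29 over all tested genes. Median-ratio scaling put them at -0.27 and 0.50, beside 0.01. Without PBS library 1 they were -0.46 and -0.01, beside -0.36 over all tested genes. Over all 17 kinases and all 11 DUSP the medians were closer together, at -0.35 and -0.02. Median-ratio scaling put these wider medians at -0.03 and 0.26, beside 0.01 over all tested genes. Without PBS library 1 the wider medians were -0.34 and -0.14, beside -0.36.

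**Figure D4:**
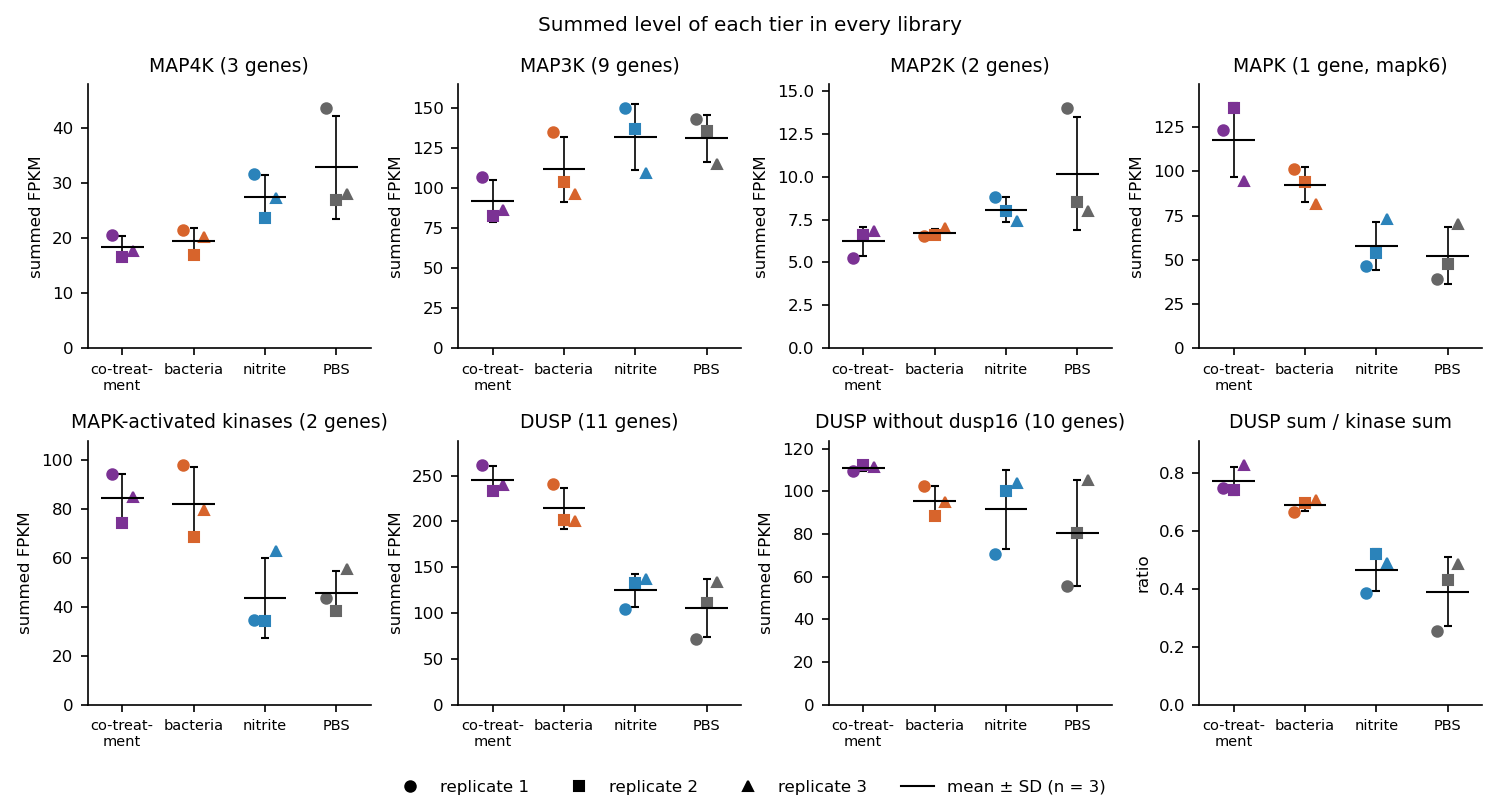
Summed FPKM of each tier (vertical axes, from 0) and the ratio of the DUSP sum to the kinase sum in every library of the co-treatment, bacteria, nitrite and PBS groups, with mean and SD (n = 3 each). The ratio lies between 0.664 and 0.827 in libraries with bacteria and between 0.254 and 0.519 in those without.

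Nitrite alone called 0 of the 29 genes, and 0.0% of all genes, by limma at an adjusted p under 0.05. At an unadjusted p under 0.05 it called 0 members and 74 genes, or 0 members and 489 genes with the replicate block. Nearest to a call was dusp16, whose nitrite libraries lay above all PBS libraries with a change of 0.45 ± 0.22 (limma adjusted p = 1). Its differences by replicate number were 1.01, 0.12 and 0.21, so PBS library 1 gave most of it. All 8 MAP kinase phosphatases had a positive change, from 0.03 to 0.50, but only 4 of the 8 had one without PBS library 1. The 17 kinases split into 7 positive and 10 negative changes, from -0.31 to 0.16.

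When nitrite was added to bacteria, 0 of the 29 genes were called, beside 0.00805% of all genes (1 gene), and the replicate block also called 0 members. At an unadjusted p under 0.05 limma gave 1 member and 156 genes, or 4 members and 432 genes with the block. That member was dusp4 (MKP-2), a nuclear phosphatase of ERK and JNK. It had 3.54, 12.1 and 6.18 FPKM in co-treatment, 2.16, 3.57 and 2.34 in bacteria, 3.62, 4.17 and 2.87 in nitrite and 2.99, 3.04 and 3 in PBS libraries. Co-treatment libraries 2 and 3 were above all others, while co-treatment library 1 lay within the range of the bacteria and nitrite groups. The change against bacteria was 1.05 ± 0.32 (limma adjusted p = 1), with differences by replicate number of 0.52, 1.52 and 1.10. The change with bacteria alone against PBS was -0.14 ± 0.32. The difference between the bacteria effects with and without nitrite was 0.87 ± 0.46 and did not pass (limma adjusted p = 1).

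The most negative change on adding nitrite to bacteria was that of map3k8, -0.47 ± 0.32 (limma adjusted p = 1), with differences by replicate number of -0.58, -0.68 and -0.16. Some phosphatases had small differences of one sign in each replicate pair: dusp5 gave 0.23, 0.50 and 0.30, dusp10 gave 0.32, 0.32 and 0.28 and dusp16 gave 0.14, 0.09 and 0.28. The phosphatase dusp12 was positive in 0 pairs. Kinases with one sign in each pair went both ways. Negative were, among others, map3k3 with -0.14, -0.33 and -0.28 and map3k15 with -0.10, -0.10 and -0.06. Positive were, among others, map3k21 with 0.62, 0.83 and 0.03 (fitted change 0.49) and map4k2 with 0.07, 0.37 and 0.10. How often one sign in each pair occurs among all genes was not computed. Of the 11 DUSP 9 had a positive change, and of the 17 kinases 7, with medians of 0.17 and -0.06 beside -0.01 over all genes. For mapk6 the differences were 0.28, 0.52 and 0.21. None of these changes passed the test.

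**Figure D5:**
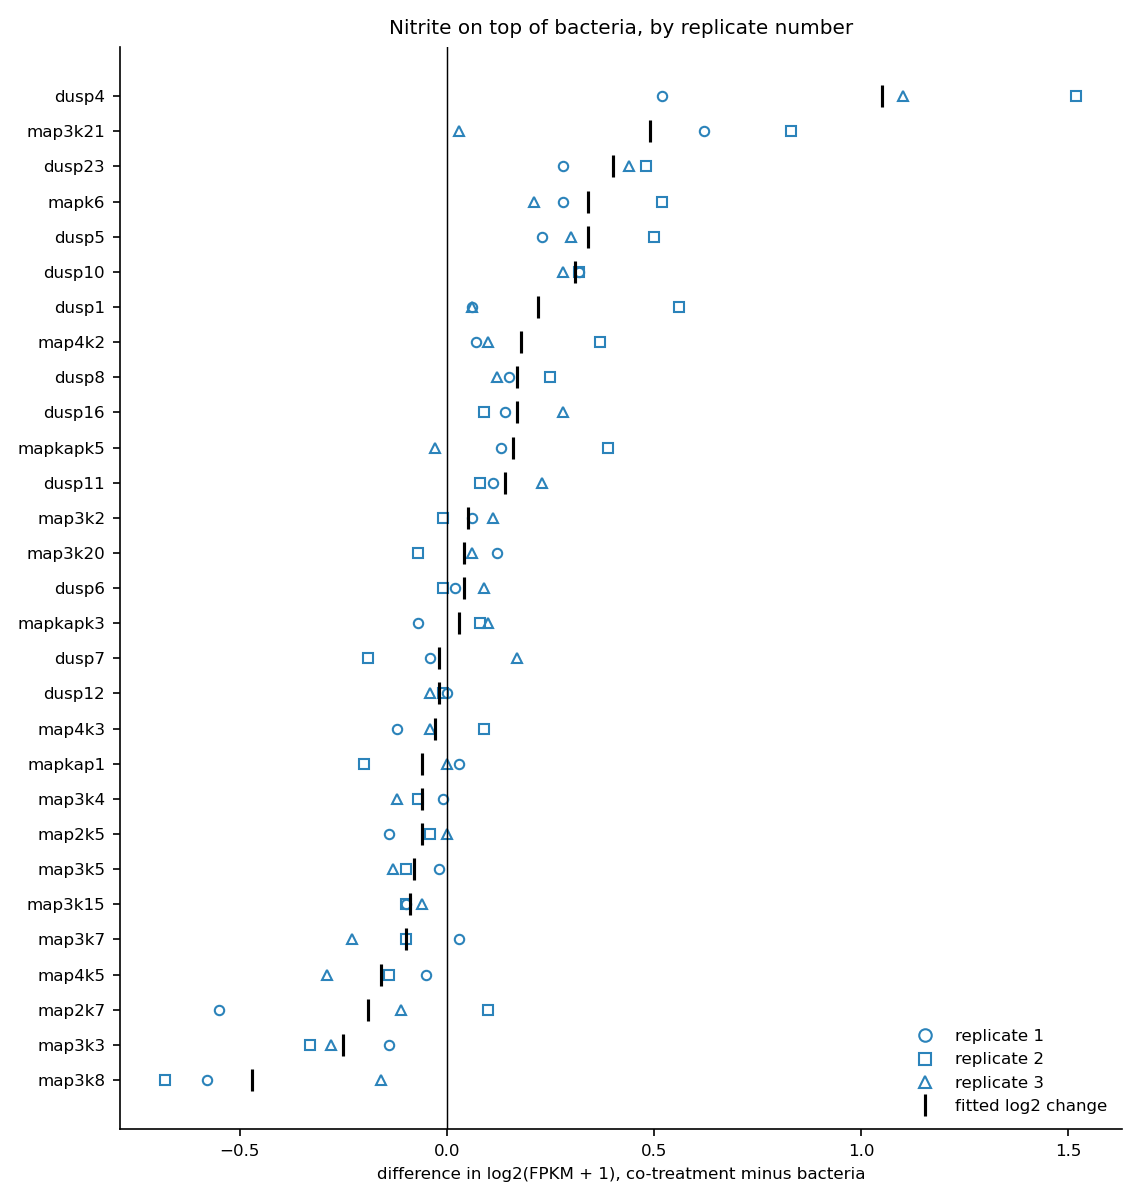
Difference between co-treatment and bacteria libraries of the same replicate number in log2(FPKM + 1) (horizontal axis) for each of the 29 genes, with the fitted change as a bar. The genes run from dusp4 with a fitted change of 1.05 at the top to map3k8 with -0.47 at the bottom, and 0 of them passed the test.

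Against PBS, co-treatment called 5 of the 29 genes higher and 9 lower, beside 39.0% of all genes (11.4% higher and 27.7% lower). This comparison shares the PBS libraries with bacteria against PBS and the co-treatment libraries with the comparison against nitrite. The rises were dusp16 (2.42 ± 0.22), mapk6 (1.18 ± 0.24), mapkapk3 (1.03 ± 0.29), dusp4 (0.91 ± 0.32) and dusp7 (0.76 ± 0.19), as log2 changes with SE. That of dusp4 (limma adjusted p = 0.0452) was kept in 6 of 19 alternatives and was lost without any 1 of the libraries except co-treatment 1, with an adjusted p of up to 0.155. The falls were map3k4 (-1.93 ± 0.23), map4k2 (-1.23 ± 0.22), map3k21 (-1.10 ± 0.28), map3k15 (-0.99 ± 0.22), map3k5 (-0.94 ± 0.34), map3k3 (-0.93 ± 0.24), map4k3 (-0.87 ± 0.31), map2k5 (-0.58 ± 0.17) and map4k5 (-0.48 ± 0.17). Those of map4k3, map4k5 and map3k5 were kept in 5, 7 and 7 of 20 alternatives. Median-ratio scaling called 7 higher and 3 lower, beside 17.8% and 15.7% of all genes. Without PBS library 1 the counts were 4 and 7, beside 12.0% and 30.0% of all genes. The changes of dusp4 (0.90), map4k3 (-0.49) and map4k5 (-0.33) were no longer called without that library. With the replicate block dusp5 was also called higher (limma adjusted p = 0.0218) and dusp10 lower (limma adjusted p = 0.0438).

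The test of whether the change with bacteria differed when nitrite was present called 0 of the 29 genes, beside 0.00805% of all genes, and at an unadjusted p under 0.05 it gave 0 members and 50 genes, or 2 members and 192 genes with the replicate block. Here too the gene counts are below a share of 0.05 of all genes, so 0 calls do not show that the changes were equal. The sign of the change with bacteria was the same with and without nitrite in 25 of the 29 genes (86.2%), beside 10845 of all 12423 tested genes (87.3%). For map3k21 the difference was 0.45 ± 0.40, for map4k2 0.38 ± 0.31 and for map3k8 -0.57 ± 0.45, where map3k8 had a change of -0.12 ± 0.32 with co-treatment against nitrite and 0.46 ± 0.32 with bacteria against PBS.

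The 29 symbols covered 58 transcripts, and 14 of them had more than 1. A separate fit of 15801 transcripts held 34 of these, and only 5 symbols had more than 1 transcript in it. The fall of map3k4 lay mainly in 1 transcript, with 0, 0.82 and 1.3 FPKM in co-treatment, 1.01, 0.97 and 0.98 in bacteria, 9.34, 8.38 and 4.94 in nitrite and 7.67, 7.49 and 5.01 in PBS libraries. That transcript changed by -1.94 ± 0.33 with bacteria against PBS (limma adjusted p = 0.00185), and a second one had a change of -0.64 ± 0.34 that was not called (limma adjusted p = 0.197). The second also lay lower in every library with bacteria, at 0.18 to 0.71 FPKM, than in those without, at 0.87 to 3.22 FPKM. The sums for map3k4 were steadier than its transcripts: in co-treatment library 1 the main transcript was listed at 0 while the 3 others together gave 1.49 FPKM. For dusp8 the main transcript had 1.26, 2.01 and 1.68 FPKM in co-treatment, 1.27, 1.47 and 1.78 in bacteria, 4.66, 4.93 and 2.83 in nitrite and 4.35, 3.2 and 2.28 in PBS libraries, with all libraries with bacteria below all without. Another of its transcripts had 0.72, 1.23 and 1.28 FPKM in co-treatment, 0.18, 1.11 and 0.48 in bacteria, 0.2, 0.74 and 0.31 in nitrite and 0, 0.98 and 0.82 in PBS libraries. It was higher in co-treatment than in nitrite in all 3 replicate numbers. Against PBS it was higher in bacteria in numbers 1 and 2 and lower in number 3. Its mean of 0.671 FPKM was under the filter, so it was not tested. The main dusp8 transcript fell with co-treatment against nitrite, with a change of -0.94 ± 0.25 (limma adjusted p = 0.0226). Its change of -0.75 ± 0.25 with bacteria against PBS missed the threshold (limma adjusted p = 0.0519). For dusp4 a minor transcript had 1.01 FPKM in co-treatment library 1 and was listed at 0 in all other libraries. The main dusp4 transcript had 2.53 FPKM in that library, below all PBS libraries (2.99, 3.04 and 3). Its change of 0.79 ± 0.39 with co-treatment against PBS was not called (limma adjusted p = 0.155), unlike that of the sum. How fragments were divided between transcripts, or between duplicated gene copies, is not given in the sources used here.

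The wider pathway was read from lists of genes matched by symbol, with counts for bacteria against PBS, where 10.7% of all tested genes rose and 26.3% fell. The lists are short, and no count below was tested against that share. Of 16 genes of RAS and RAF entry, the step above the ERK relay, 1 rose and 7 fell. The MAP3K braf fell, with a log2 change of -1.05 ± 0.17 (limma adjusted p = 0.000923), as did rras2, a RAS-like GTPase, with -0.97 ± 0.23 (limma adjusted p = 0.00755). The RAS brakes rasa1 and nf1, which drive RAS to its inactive form, also fell, with -0.81 ± 0.17 and -0.64 ± 0.15. The gene that rose was rasgrp1, an exchange factor that loads RAS in lymphocytes (1.23 ± 0.34). Of 11 TRAF, TAB and GADD45 adaptors 2 rose and 1 fell. The activator of map3k4 in mammals, gadd45b, had 299, 408 and 289 FPKM in co-treatment, 176, 266 and 234 in bacteria, 29.9, 29.4 and 36.7 in nitrite and 11.9, 23.4 and 24.4 in PBS libraries. It rose by 3.48 ± 0.28 (limma adjusted p = 1.04e-05) in the comparison in which map3k4 fell. The adaptor traf3 rose by 2.32 ± 0.57 (limma adjusted p = 0.00928), with 32.9, 40.6 and 42.1 FPKM in bacteria and 1.29, 13.7 and 13.6 in PBS libraries, and without PBS library 1 the change was 1.42 (limma adjusted p = 0.000356). The GTPase rac1 fell, with -0.92 ± 0.28 (limma adjusted p = 0.0251).

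Of 6 kinases listed under other names, not all of them part of the relay, 0 rose and 2 fell. They were tesk1, which is no tier of the relay, with a change of -2.39 ± 0.43, and pak1, which answers to RAC and CDC42, with -0.98 ± 0.28. Of 4 kinases downstream of the MAP kinases 1 rose, the ERK target rps6ka3 (RSK2), by 0.88 ± 0.24 (limma adjusted p = 0.0162). Of 14 transcription factors that MAP kinases phosphorylate, 4 rose and 1 fell. The AP-1 subunits jund and fosl1 rose by 3.52 ± 0.20 (limma adjusted p = 1.11e-06) and 2.68 ± 0.38 (limma adjusted p = 0.000466), atf7 by 1.34 ± 0.19 and the stress factor ddit3 (CHOP) by 1.11 ± 0.19. The levels of jund were 52.7, 55.6 and 62.7 FPKM in co-treatment, 51.02, 54.5 and 57.5 in bacteria, 4.22, 6.37 and 5.48 in nitrite and 2.6, 4.48 and 4.61 in PBS libraries, with no overlap between libraries with and without bacteria.

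Of 19 genes listed as other brakes on MAP kinase signalling, some of which act outside the relay, 4 rose and 6 fell. Among the rises were the tyrosine phosphatases ptpn7, which acts on ERK and p38 in mammalian leukocytes (1.72 ± 0.29), and ptpn6 (SHP-1, 1.58 ± 0.27), and pea15, which holds ERK in the cytoplasm (2.06 ± 0.32). The falls included the RAS-ERK inhibitors spry2 (-1.68 ± 0.21) and spred1 (-0.97 ± 0.22) and the mRNA decay factors zfp36l1 (-1.90 ± 0.27) and zfp36l2 (-2.62 ± 0.32). The levels of ptpn7 were 306, 273 and 213 FPKM in co-treatment, 264, 244 and 202 in bacteria, 91.2, 66.1 and 108 in nitrite and 44.9, 86.6 and 90.8 in PBS libraries. Those of spry2 were 2.3, 3.73 and 3.44 FPKM in co-treatment, 2.07, 3.23 and 3.57 in bacteria, 9.18, 8.41 and 10.4 in nitrite and 13.5, 10.1 and 11.2 in PBS libraries. Of the 29 calls in these 6 pathway lists, 21 remained after median-ratio scaling, 19 after quantile normalization and 29 with the replicate block, and 0 turned round. RAS and RAF entry had 2 rises and 3 falls after median-ratio scaling, where its genes nf1, mras, gab2 and rasgrp2 were no longer called. The adaptor list then lost rac1 and had 4 rises and 0 falls. The transcription factors had 5 rises and 0 falls, the kinases under other names 1 and 2, and the other brakes 4 and 4. Of all tested genes 16.8% rose and 14.0% fell under that scaling. With 1 library left out, 21 to 28 of the calls remained, with 21 without bacteria library 1 and 21 without PBS library 2. The call of rac1 was lost without bacteria library 1 or 3 or PBS library 2, that of pak1 without bacteria library 1 or PBS library 1 or 2, that of rps6ka3 without bacteria library 1 or PBS library 2, and that of rasgrp1 without bacteria library 3. The part of the cell type markers in these changes was not tested either.

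The 20 symbols under 1 FPKM were dusp13, dusp14, dusp22, dusp26, dusp27, dusp28, map2k1, map3k10, map3k12, map3k13, map3k19, map3k7cl, map3k9, map4k4, mapk10, mapk15, mapk4, mapk8ip1, mapk8ip2 and mapk8ip3. All 8 MAP kinase phosphatases passed the filter, against 3 of 9 atypical DUSP, 3 of 4 MAP4K, 9 of 14 MAP3K, 2 of 3 MAP2K, 1 of 4 MAP kinases and both MAPK-activated kinases. Nearest below the limit were mapk4 with a mean of 0.917 FPKM and dusp26 with 0.857 FPKM, and nearest above it map2k7 with 1.16 FPKM and dusp23 with 1.34 FPKM. Genes below the limit were not tested, and some differed in direction from the called genes of their tier. The mean of mapk4 was 0.19 ± 0.138 FPKM in bacteria and 1.72 ± 1.52 in PBS libraries (SD, n = 3 each). That of map3k13 was 0.48 ± 0.219 and 0.0767 ± 0.0351 FPKM in the same groups. The gene map2k1 (MEK1), an activator of ERK, had a mean of 0.0567 FPKM, and mapk10 and dusp13 were listed at 0 in every library.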

How the data were processed

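RNA of 12 libraries in 4 groups of 3 was measured. Per the labels' protocols, Trizol was used for extraction and a TruSeq kit for the libraries. The authors deposited 1 table of FPKM values, rounded to 2 decimals, in which 58070 transcripts carry a gene symbol each. The submitters' processing notes name Trimmomatic 0.30, HISAT2 2.0.1 and HTSeq 0.6.1. Which genome build, annotation and FPKM tool were used is not given in the sources used here. Gene positions were not used.

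Transcripts were summed per symbol. Genes that averaged at least 1 FPKM were fitted together as log2(FPKM + 1) with limma 3.58.1 in R 4.3.3, with a mean-variance trend and 8 residual degrees of freedom. Changes on this scale understate those of genes with low values. The 6 contrasts were bacteria against PBS, nitrite against PBS, co-treatment against PBS, against bacteria and against nitrite, and the difference between the bacteria effects with and without nitrite. The Benjamini-Hochberg adjustment ran over all 12423 genes, with a threshold of 0.05. The fit was tested on simulated data with independent noise of a single size for all genes and libraries. That test therefore does not cover the pairing of libraries by number or the deviation of PBS library 1. Errors of log2 changes are standard errors of the fit, and those of FPKM are standard deviations. No 2 libraries held identical values.

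The replicate number comes from the sample titles, and the labels do not say what it marks. Deviations from the group means of same-numbered libraries correlated at 0.42 to 0.92 in all 18 pairs, so the numbers were taken to pair the libraries. The main model had no block, so its calls leave this pairing out. With bacteria against PBS it called 37.0% of all genes, against 53.4% with the block.

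Values per library are given for each gene called in any contrast and for a panel of well-known kinases and phosphatases. Of the wider lists, up to 4 genes with the smallest adjusted p are named; rasgrp1, mras, gab2, rasgrp2, ptpn7, ptpn6 and spred1, and the markers named, fall outside that rule and were chosen after their values were seen. Panel and list symbols without a match are not analysed here, and 1 gene that the name pattern matches is not reported and stands in no count of family genes. The family members and lists were chosen with earlier results of these data known, so the counts are descriptions and not independent evidence. The alternatives were other pseudocounts and filters, median-ratio scaling, quantile normalization, the replicate block, the highest transcript per symbol, and leaving out each library.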

Additional observations from a re-analysis of the deposited data

How the results depend on the processing

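The 34 calls of single genes were recomputed under up to 20 alternatives, 673 combinations in all: 552 kept the call, 121 lost it and 0 reversed. Of the 34, 15 kept it under every alternative, among them dusp16 and map3k4 in all 3 comparisons with called members. Genes under a mean of 5 FPKM have no value under that filter. Both scalings moved the median of all genes up, which by construction favours rises over falls. With bacteria against PBS, 6 genes were called lower, against 11 with the replicate block, 4 with median-ratio scaling and 3 with quantile normalization. The shares of all tested genes called lower were 26.3%, 38.6%, 14.0% and 14.3% in the same order. With co-treatment against PBS, 9 were called lower, against 3 and 4 after these scalings, beside 27.7%, 15.7% and 15.4% of all tested genes. With co-treatment against nitrite, 6 were called lower, against 3 and 2 after these scalings and 3 with no filter. The shares of all tested genes called lower were 23.3%, 13.2%, 11.9% and 12.2% in the same order. Leaving out 1 library gave 2 to 4 higher and 4 to 8 lower with bacteria against PBS, the lowest rise count without bacteria library 1 or PBS library 2. Of all tested genes, 8.03% to 11.3% were then called higher and 16.9% to 28.5% lower. Leaving out 1 library gave 3 to 5 higher and 5 to 8 lower with co-treatment against PBS. The lowest counts were 3 higher without PBS library 2 and 5 lower without co-treatment library 2. The shares of all tested genes were 9.35% to 12.1% higher and 20.0% to 30.0% lower. With co-treatment against nitrite, leaving out 1 library gave 3 to 5 higher and 3 to 7 lower, with 3 lower without nitrite library 2. The shares of all tested genes were 8.11% to 13.6% higher and 15.1% to 33.0% lower. The other comparisons called 0 members under every alternative. The replicate block changed calls of single genes only where given beside the result or here: with co-treatment against nitrite it also called dusp4 higher (limma adjusted p = 0.0361), and dusp10 (0.0169), dusp8 (0.0344) and map4k3 (0.0351) lower. Absolute depth is unknown, so no counting interval could be given.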
